A study of Homo sapiens with 24 samples.

Results

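The interaction of sodium butyrate and doxycycline was measured on all 24 arrays of the series, as the difference between the butyrate response of cells without doxycycline and that of cells with it. All cells were HCT-116, a human colorectal cancer cell line, and all came from 1 stably transfected clone that carries a Tet repressor and a doxycycline-inducible, FLAG-tagged dominant negative Tcf4 (DN-Tcf4). The 4 groups were untreated cells (Ctl), cells given 5 mM sodium butyrate (NaB), cells given 4 ug/ml doxycycline (Doxy) and cells given both at those doses (DoxyNaB), each in 6 numbered experiments (n = 6 per group). The sample labels give 17.5 hr for both agents, while the study's methods put doxycycline first and give 17.5 hr for the cotreatment, so that the whole exposure to doxycycline may have been longer. The transgenes were present in every group, so that the untreated cells are not parental HCT-116 cells, and values from 1 clone measure the spread between experiments with that clone. Doxycycline has effects of its own on cells, and no group given doxycycline lacked the inducible transgene, so that the antibiotic and the induced protein cannot be told apart in any difference with doxycycline.

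In canonical Wnt signalling, beta-catenin binds Tcf factors on DNA and drives the transcription of genes that promote crypt cell proliferation, among them several that dampen the pathway itself. Tcf4 is encoded by TCF7L2, and a Tcf4 without its beta-catenin interaction domain occupies Tcf sites and competes with the intact factor. Butyrate, made by bacterial fermentation of dietary fiber in the colon, inhibits histone deacetylases and changes the transcription of a large part of the genome. ATF4 is a transcription factor that is translated when amino acids run short or mitochondria are stressed, and it raises genes of amino acid synthesis and transport. Doxycycline belongs to the tetracyclines, which can block mitochondrial translation.

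Probes and promoters are shown for genes described below, and no value below was tested against a promoter sequence. The first are 3 of the 60-base probes annotated to TCF7L2, which report on the gene and, where the construct holds their bases, on the transgene. Their positions on chromosome 10, plus strand, NCBI36, are chr10:114714311-114714370 for the most 5′ probe, chr10:114895793-114895852 for the middle probe and a start at 114901475 for the next 3′ probe.
TCF7L2 most 5′ probe: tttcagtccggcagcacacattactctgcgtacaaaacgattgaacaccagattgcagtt
TCF7L2 middle probe: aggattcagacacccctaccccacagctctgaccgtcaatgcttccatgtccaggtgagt
TCF7L2 next 3′ probe: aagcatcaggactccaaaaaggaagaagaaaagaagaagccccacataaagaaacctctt
The others are the 250 bases before the start of 2 Wnt feedback genes and of CHAC1, from RefSeq on GRCh38.p14, at chr2:170715087-170715336 (SP5), chr10:52314031-52314280 (DKK1) and chr15:40953221-40953470 (CHAC1), all on the plus strand. Capitals mark CTTTGA, the core of the Tcf site, on either strand in SP5 and DKK1, and TGATGNAA, the core of the site bound by ATF4 with its partners, in CHAC1.
SP5 promoter: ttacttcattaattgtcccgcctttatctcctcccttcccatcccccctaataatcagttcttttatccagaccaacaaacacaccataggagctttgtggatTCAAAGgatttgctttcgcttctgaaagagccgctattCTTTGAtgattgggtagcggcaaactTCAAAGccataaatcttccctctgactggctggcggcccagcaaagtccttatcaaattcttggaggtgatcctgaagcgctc
DKK1 promoter: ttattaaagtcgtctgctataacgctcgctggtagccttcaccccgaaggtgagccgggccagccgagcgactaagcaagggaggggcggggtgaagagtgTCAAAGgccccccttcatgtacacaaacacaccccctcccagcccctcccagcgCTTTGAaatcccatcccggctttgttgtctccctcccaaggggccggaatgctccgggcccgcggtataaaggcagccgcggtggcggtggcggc
CHAC1 promoter: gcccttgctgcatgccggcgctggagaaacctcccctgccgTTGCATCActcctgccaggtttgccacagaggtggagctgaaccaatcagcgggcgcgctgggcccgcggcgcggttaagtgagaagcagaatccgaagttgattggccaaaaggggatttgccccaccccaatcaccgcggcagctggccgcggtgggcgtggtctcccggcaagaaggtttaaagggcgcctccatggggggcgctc
The SP5 stretch held CTTTGA 3 times, with first bases 147, 109 and 83 bases before the start, and that of DKK1 held it 2 times, at 149 and 95. In CHAC1 the single TGATGNAA began 209 bases before the start, and this motif was chosen after the values of the gene were seen. CTTTGA was found in 11.2% of the 35116 promoters of the table, CACGTG, the E-box bound by MYC, in 6.34% and TGATGNAA in 3.14%. SP5 and DKK1 were the only 2 that held CTTTGA of the 8 named Wnt feedback, crypt and Tcf target genes with a promoter entry, and CHAC1 and ASNS the only 2 that held TGATGNAA of the 6 named ATF4 genes with one. Of the 34 named genes with a positive interaction that had a promoter entry, 6 held CTTTGA, against 2 of 13 with a negative interaction, while 13.5% of all 27305 genes held it in at least 1 entry. CACGTG was found for 5 of the 34 and for 0 of the 13, against 7.73% of all genes. A match shows only that these letters are there.

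Levels are given as log2 of the processed intensity of a probe minus the 75th percentile of its array, so that a difference of 1 is a 2-fold change, and levels of different probes cannot be compared. The interaction is (NaB minus Ctl) minus (DoxyNaB minus Doxy), so that a positive value stands for a butyrate response that was more positive without doxycycline. A probe entered the test if all arrays of any 1 group showed it well above background, and was called at a limma p below 0.01 after Benjamini-Hochberg adjustment over all 18984 probes tested. The share of spots well above background was 78.3 to 88.1% in experiments 2 to 4 and 52.5 to 62.4% in the others. The average net signal of the negative control spots reached 161.0 in NaB of experiment 3 and 248.9 in DoxyNaB of experiment 2, against 48.4 to 115 on the other 22 arrays. Of the 12 colon epithelial markers listed, 9 or 10 were well above background on all 6 arrays of each group. Of 11 fibroblast markers 1 or 2 were, of 11 leukocyte markers 3 to 6, and of 8 endothelial markers 0 to 2. The summed level of the fibroblast markers was -1.74 to -0.35 on the arrays without butyrate and 0.26 to 1.70 on those with it, and that of the leukocyte markers -0.56 to 0.12 and 0.55 to 1.40, so that these lists moved with butyrate in both arms, and none of their tested genes (2 and 6) was called for the interaction. All cells came from 1 HCT-116 clone, so that these lists do not count cells of other types, and the cause of their shift was not tested.

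The butyrate response depended on doxycycline for 236 probes, 1.24% of those tested, which belong to 216 named genes, with 2 probes that have no gene name. The interaction was positive for 195 probes (1.03% of those tested) and negative for 41 (0.216%). Wnt feedback genes, MYC and other crypt genes were among the first set, with the lowest levels or the weakest rises in DoxyNaB cells, as were 7 genes of the ATF4 response, whose doxycycline difference was larger without butyrate. TCF7L2, UCA1 and CDC25B were in the second set, with higher levels in DoxyNaB than in NaB cells. The size of the interaction in called probes ran from 0.35 to 4.16 with a median of 0.80, and 75 exceeded 2-fold. The same sign was seen in 6 of 6 experiments for 231 of the 236. The calls were made from these same experiments, so that this count only describes them. By comparison the butyrate response itself was called for 68.2% of probes without doxycycline and for 67.0% with it, and the doxycycline difference for 0.5% without butyrate and for 2.49% with it.

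The split between the signs depended on the scaling of the arrays. With each array scaled to its median after a floor of 5, 9 probes were called and 1 of the 9 was positive, against 82.6% positive with the 75th percentile, and with quantile normalization 204 were called, 154 of them positive. The median interaction of all probes tested was 0.05 in the main scaling, 0.01 with quantile normalization, -0.09 with normexp background correction and -0.14 with median scaling. Subtracting the median of 0.05 from each probe left 206 calls, 155 positive. Of the 63 called probes of named genes, 62 kept the sign of the interaction in every alternative that tested them, and the exception was KRT37, which was not well above background on any array without butyrate and is only named here. Other named probes were well above background on only some arrays of a group, so that part of their difference rests on dim values. These were ZNF503-AS2 (5 of 6 arrays in Ctl and DoxyNaB), SLC7A11 and LONRF2 (5 in DoxyNaB), SERPINB8 (5 in Ctl, 4 in DoxyNaB), CRYBA2 (5 in Ctl, 4 in Doxy), SBSN (5 in Ctl), LRG1 (3 in Ctl, 4 in Doxy), HEY1 (4 in Ctl), SOX2 (5 in Ctl, 2 in Doxy), TM4SF19 and the TCF7L2 probes described with their values. Of the same 63, 25 were called with normexp, 46 with quantile normalization, 8 with median scaling and 32 without the experiment as a block.

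**Figure D1:**
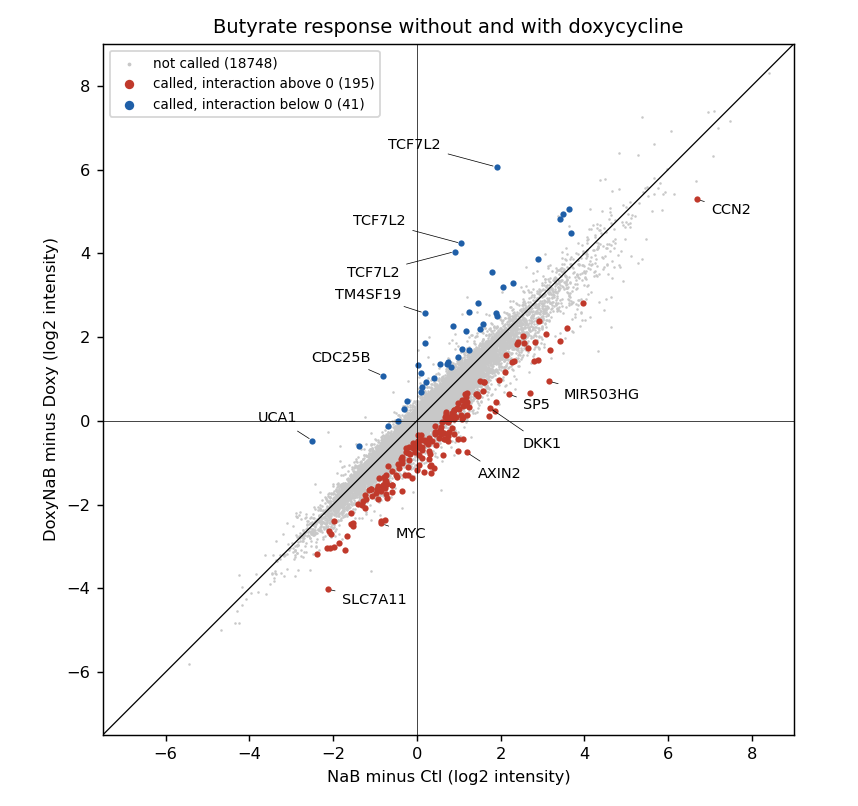
Butyrate response with doxycycline (y axis, DoxyNaB minus Doxy, log2 intensity) against that without it (x axis, NaB minus Ctl, log2 intensity) for the 18984 probes tested, with equal responses on the diagonal. The 195 called probes with a positive interaction lie below the diagonal and the 41 with a negative interaction above it, the 3 called TCF7L2 probes farthest.

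Genes with a positive interaction differed in what butyrate did to them. Of the 195 probes, 64 rose with butyrate in both arms, less so with doxycycline, 74 fell in both, further with doxycycline, and for 57 the fitted responses had opposite signs. The responses of both arms passed the test in 46, 62 and 20 of these. Their median butyrate response was 0.31 without doxycycline and -0.50 with it. Seen from the side of doxycycline, the difference was the larger one in the presence of butyrate for 156 of the 195 and in its absence for 39, with medians of -0.60 (DoxyNaB minus NaB) and 0.17 (Doxy minus Ctl). Of the 41 probes with a negative interaction, 34 rose with butyrate in both arms, and 38 had the larger doxycycline difference in the presence of butyrate. Their median butyrate response was 0.91 without doxycycline and 1.86 with it. These counts share their arrays with the interaction itself and only describe its parts.

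TCF7L2, the gene whose dominant negative form the inducible transgene encodes, had the most negative interactions of the called probes. In the study's western blot, DN-Tcf4 protein was minimal with doxycycline alone and high with both agents. The level at the middle probe was 0.19, 0.32 and 1.42 (lowest, median and highest) in Ctl, 1.04, 1.52 and 2.74 in NaB, 0.10, 0.45 and 1.54 in Doxy, and 4.05, 4.57 and 6.28 in DoxyNaB. Every DoxyNaB array lay above every other array, while the Ctl and Doxy arrays overlapped. Doxycycline alone moved the probe by 0.04 ± 0.18 (SD over 6 experiments, limma adjusted p = 0.953), and in the presence of butyrate by 3.22 ± 0.45 (adjusted p = 1.19e-10). The interaction was -3.18 ± 0.41 (adjusted p = 5.52e-08) and stayed called in each of the 6 fits that left out 1 experiment. The next 3′ probe gave -3.13 ± 1.04 (adjusted p = 0.00148), and its call was lost without experiment 2 (adjusted p = 0.0101) or experiment 5 (adjusted p = 0.0122). A 3′ probe with a start at 114915968 gave -4.16 ± 0.92 (adjusted p = 0.000432), but was well above background on only 1 Ctl, 3 NaB and 3 Doxy arrays against all 6 DoxyNaB arrays.

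The most 5′ TCF7L2 probe moved the other way. Its level was -3.39, -2.47 and -1.93 in NaB and -4.75, -3.94 and -2.83 in DoxyNaB, with overlapping ranges, and 4 of the 6 DoxyNaB arrays were well above background. It was lower in DoxyNaB than in NaB by 1.25 in the fit, that is -1.25 ± 0.65 (adjusted p = 0.00568), while its interaction of 1.62 ± 0.86 did not pass the test (adjusted p = 0.0196). Without the 2 arrays of high negative controls this interaction was 1.71 and passed (adjusted p = 0.00454), while with normexp it was 0.26 (adjusted p = 0.711) and without the experiment as a block its adjusted p was 0.0789.

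AXIN2, a scaffold of the complex that degrades beta-catenin and a feedback target of the pathway, had the largest interaction among the Wnt feedback genes. Its level was -0.34, -0.20 and 0.40 in Ctl, 0.53, 0.98 and 2.10 in NaB, -1.05, -0.87 and 0.01 in Doxy, and -1.75, -1.56 and -1.04 in DoxyNaB. All NaB arrays lay above all others, and the DoxyNaB arrays were lowest, with the ranges of Doxy and DoxyNaB meeting at 1 array each. Butyrate raised AXIN2 by 1.19 ± 0.29 without doxycycline, or 2.28-fold, and with doxycycline the level fell by 0.76 (± 0.15). The responses were in opposite directions in all 6 experiments, with an interaction of 1.95 ± 0.42 (adjusted p = 8.26e-08). AXIN2 was also lower with doxycycline alone, by -0.58 ± 0.15 (adjusted p = 0.0029), and in the presence of butyrate by -2.53 ± 0.34 (adjusted p = 2.64e-11). The calls of AXIN2, SP5, DKK1, MYC, CCND1, KITLG, BMP4 and SOX9 were kept in all 6 fits that left out 1 experiment. With median scaling none of them was called (adjusted p from 0.0202 for AXIN2 to 0.983).

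SP5, a transcription factor of the Sp family and a direct Wnt target, rose with butyrate in both arms. Its level was -2.38, -2.10 and -1.93 in Ctl, -0.14, 0.04 and 0.38 in NaB, -2.55, -2.39 and -1.92 in Doxy, and -2.03, -1.76 and -1.34 in DoxyNaB. NaB arrays lay above all others, which overlapped. The response was 2.20 ± 0.16 without doxycycline and 0.64 ± 0.20 with it (-0.044 with quantile normalization), and the interaction 1.56 ± 0.28 (adjusted p = 8.26e-08), not called with normexp (0.97, adjusted p = 0.0528) or quantile normalization (2.03, adjusted p = 0.0186). DKK1, a secreted inhibitor of the Wnt co-receptors, had a level of 4.50, 4.69 and 5.14 in Ctl, 6.09, 6.48 and 7.12 in NaB, 4.29, 4.60 and 4.82 in Doxy, and 4.56, 4.93 and 5.11 in DoxyNaB. Again the NaB arrays stood alone above the other 3 groups. DKK1 rose by 1.74 ± 0.23 without doxycycline, the response with it was 0.31 ± 0.29 (adjusted p = 0.0213), and the interaction was 1.43 ± 0.38 (adjusted p = 5.11e-05). RNF43, a ubiquitin ligase that removes Wnt receptors, fell with butyrate, by -2.08 ± 0.16 and with doxycycline by -3.04 ± 0.39. Its interaction of 0.96 ± 0.31 (adjusted p = 0.00141) was not called without experiment 3 (adjusted p = 0.0166) or experiment 5 (adjusted p = 0.0166), nor with normexp (adjusted p = 0.561) or median scaling (adjusted p = 0.983).

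Of the 15 Wnt feedback genes tested, these 4 were called and all were positive, against 1.14% of all 14667 genes called positive. This list and those below were chosen with earlier results of these data known. Their shares beside those of all genes describe the lists and do not test them. The median interaction of the 15 was 0.44, against 0.04 over all genes. In the presence of butyrate 6 of the 15 were lower with doxycycline (2.08% of all genes) and 0 higher, with a median difference of -0.48, the other 2 being TCF7 at -0.51 (adjusted p = 6.29e-05) and BAMBI at -0.44 (adjusted p = 0.000772). Without butyrate only AXIN2 of the 15 was called, where 0.0955% of all genes were called lower. This call was lost with normexp, quantile normalization, median scaling and no filter, and without the experiment as a block. It was also lost when any of experiments 2 to 6 was left out (differences of -0.62 to -0.55), and in experiments 2 to 4 or 5 and 6 alone. KREMEN1, NKD1, NKD2, PORCN and TIAM1 had interactions between -0.07 and 0.35 with no call. Among the 41 Wnt ligands, receptors and Tcf factors tested, TCF7L2 was the only gene called, where 1.38% of all genes were called in either direction. Its probes may also read the transgene, so that this single call gives no result about the list.

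**Figure D2:**
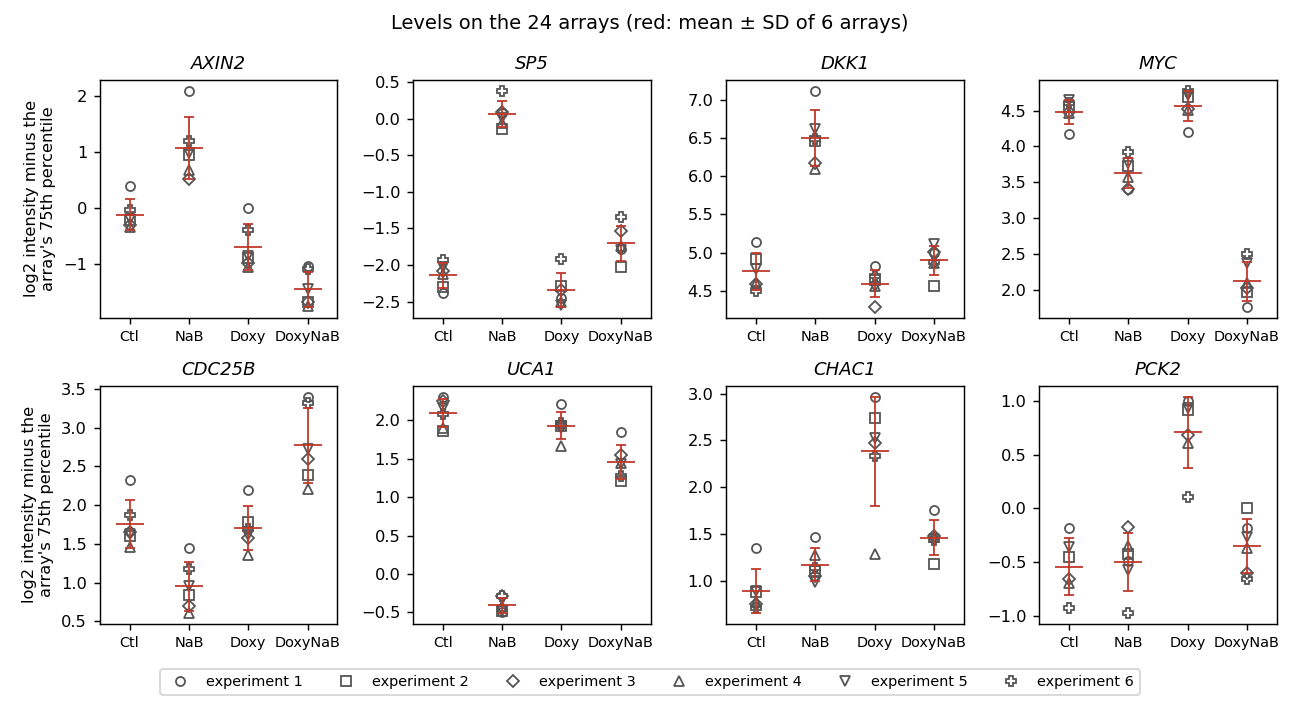
Level on each of the 24 arrays (y axis, log2 intensity minus the 75th percentile of the array) for 8 genes by group (x axis, 6 arrays each); open symbols mark the experiments and red bars the mean ± SD. AXIN2, SP5 and DKK1 were highest in NaB, MYC lowest in DoxyNaB, UCA1 lowest in NaB, CDC25B highest in DoxyNaB, and CHAC1 and PCK2 had their highest medians in Doxy.

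MYC, a driver of growth and proliferation and a direct Tcf target, fell with butyrate in both arms and further with doxycycline. Its level was 4.17, 4.52 and 4.64 in Ctl, 3.40, 3.65 and 3.93 in NaB, 4.20, 4.61 and 4.78 in Doxy, and 1.76, 2.05 and 2.49 in DoxyNaB. The 2 groups without butyrate overlapped, and each of the other 2 lay apart, DoxyNaB lowest. The level fell by 0.85 (± 0.13) without doxycycline and by 2.45 (± 0.15) with it, and the interaction was 1.60 ± 0.17 (adjusted p = 2.14e-08). Doxycycline alone moved MYC by 0.08 ± 0.06 (adjusted p = 0.659). CCND1, which encodes the G1 cyclin D1, had a level of 0.98, 1.15 and 1.46 in NaB and -0.19, 0.20 and 0.76 in DoxyNaB, without overlap, while every array without butyrate was at 2.87 or above. Its interaction was 1.04 ± 0.25 (adjusted p = 0.000202).

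KITLG, the ligand of the KIT receptor, and BMP4, a ligand of the BMP pathway, had the same order of groups. KITLG lay between 3.66 and 4.00 on all arrays without butyrate, between 1.97 and 2.15 in NaB and between 0.47 and 1.15 in DoxyNaB, with an interaction of 1.05 ± 0.18 (adjusted p = 2.47e-05). BMP4 had medians of 4.94 in Ctl, 4.54 in Doxy, 3.25 in NaB and 2.06 in DoxyNaB, and its interaction was 0.99 ± 0.25 (adjusted p = 1.48e-05). SOX9, a transcription factor of the crypt base, had a level of 1.99, 2.37 and 2.47 in Ctl, 2.37, 2.62 and 2.77 in NaB, 2.33, 2.64 and 2.83 in Doxy, and 1.42, 1.93 and 2.19 in DoxyNaB. DoxyNaB lay below NaB and Doxy without overlap, and overlapped Ctl. The SOX9 response was 0.29 ± 0.26 without doxycycline (adjusted p = 0.0162) and fell by 0.73 (± 0.29) with it, an interaction of 1.01 ± 0.24 (adjusted p = 0.000446).

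These 5 genes were the ones called among 30 crypt progenitor and Tcf target genes tested, all positive, and the median interaction of the 30 was 0.17. Over all genes 1.38% were called in either direction. Within butyrate 8 of the 30 were lower with doxycycline and 2 higher, where 2.08% of all genes were lower and 0.709% higher. The 2 higher ones were PLAU, the urokinase protease, at 1.04 (adjusted p = 2.43e-06) and FOSL1, an AP-1 subunit, at 0.56 (adjusted p = 0.00015). SOX2, SOX4 and VIM were not called, with interactions of 0.32 ± 1.06 (adjusted p = 0.797), 0.51 ± 0.22 (adjusted p = 0.0281) and 0.74 ± 0.29 (adjusted p = 0.0357). The stem cell surface proteins CD44 and PROM1 and the receptors EPHB2, EPHB3 and MET had interactions between -0.09 and 0.37, none called.

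Of 48 MYC partners and MYC-bound growth genes tested, 3 were called (MYC, MNT and RCL1), all positive, against 1.14% of all genes called positive, and the median interaction was 0.08 against 0.04 over all genes. MNT, a repressor that competes with MYC for MAX, gave 0.58 ± 0.23 (adjusted p = 0.00384), a call that was lost without any of experiments 1, 3, 4 and 5 (adjusted p up to 0.0549), and a second MNT probe was not called (0.82, adjusted p = 0.726). RCL1, a protein of ribosome assembly, gave 0.52 ± 0.12 (adjusted p = 0.000607), and lost its call without experiment 5 (adjusted p = 0.0125), and a second probe gave 0.62 (adjusted p = 0.000649). Without doxycycline 36 of the 48 fell with butyrate and 7 rose, where 29.4% of all genes fell and 40.8% rose. With doxycycline 36 fell and 4 rose, where 30.7% of all genes fell and 38.4% rose.

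**Figure D3:**
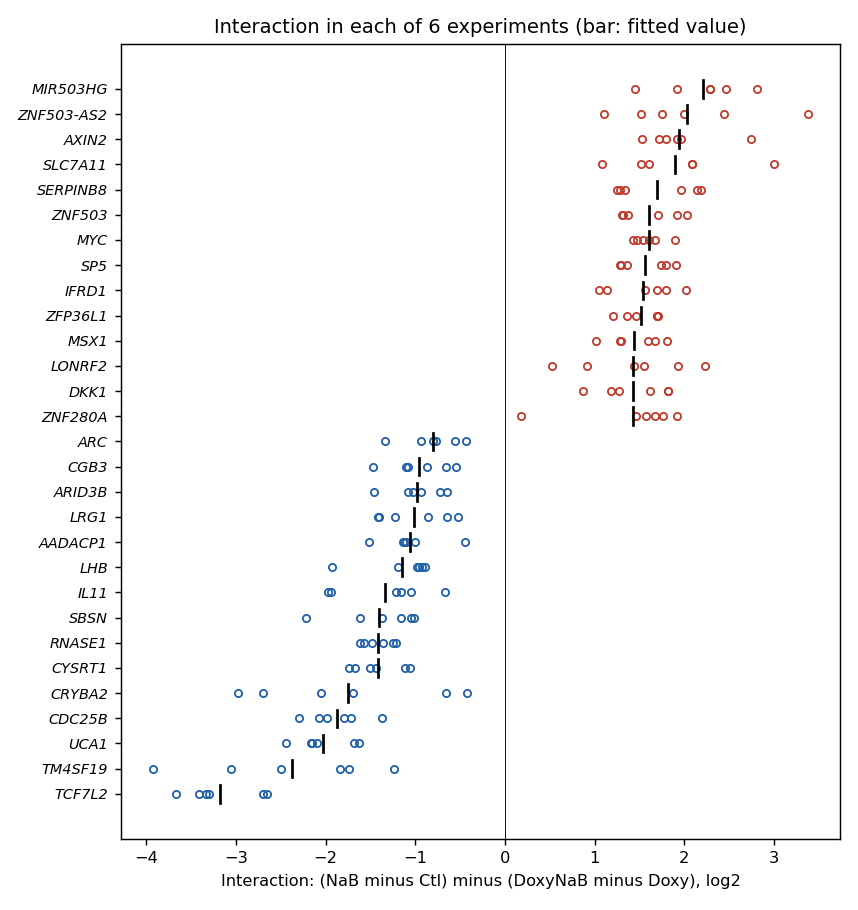
Interaction (x axis, log2) in each of the 6 experiments (open circles) and in the fit (bars) for the 14 positive and 15 negative genes of largest interaction among those matched to RefSeq with the same sign in 6 of 6 experiments, KRT37 left out. By this choice each circle lies on the side of 0 of its gene's fitted value. Circles of AXIN2, ZNF280A and LHB stand apart from their other 5.

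The other large positive interactions belonged to genes of varied function. MIR503HG, the host gene of the microRNAs miR-424 and miR-503, rose by 3.15 ± 0.41 without doxycycline and by 0.95 ± 0.30 with it, and its level was 0.08, 0.64 and 0.83 in NaB against -1.70, -1.58 and -0.88 in DoxyNaB. Its interaction of 2.20 ± 0.47 (adjusted p = 1.27e-06) was 1.35 with normexp and then not called (adjusted p = 0.023). ZNF503, a zinc finger repressor, lay between 3.43 and 4.24 in NaB and between 1.53 and 2.33 on all other arrays. It rose by 1.71 ± 0.16 without doxycycline and gave 0.10 ± 0.21 with it (adjusted p = 0.313), an interaction of 1.61 ± 0.32 (adjusted p = 7.19e-07). The antisense gene ZNF503-AS2 gave 2.03 ± 0.80 (adjusted p = 0.000447), and shares a locus with ZNF503, so that the 2 are not independent. ZNF503-AS2 was not called with normexp (0.56, adjusted p = 0.606) or median scaling (1.84, adjusted p = 0.0222).

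MSX1, a homeobox factor of the BMP pathway, was at 2.95, 3.16 and 3.52 in NaB and at 1.55, 1.91 and 2.17 in DoxyNaB, above 1.19 to 1.68 on the arrays without butyrate except where Doxy and DoxyNaB overlapped. Its interaction was 1.44 ± 0.30 (adjusted p = 6.84e-07), and the response with doxycycline of 0.45 was -0.11 with median scaling. ZFP36L1, which binds AU-rich elements and speeds the decay of mRNAs, was at 2.71, 2.97 and 3.39 in NaB and at 1.32, 1.60 and 1.94 in DoxyNaB, with an interaction of 1.52 ± 0.21 (adjusted p = 5.52e-08), and a second probe gave 1.61. Like MYC it fell in both arms. AMOTL2, an angiomotin that restrains the co-activator YAP, was at 1.47, 1.71 and 1.87 in NaB and at 0.34, 0.40 and 0.53 in DoxyNaB, with an interaction of 1.31 ± 0.23 (adjusted p = 3.36e-07).

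IFRD1 and SERPINB8 moved in opposite directions in the 2 arms. IFRD1, a transcriptional co-regulator, rose by 1.11 ± 0.25 without doxycycline and fell by 0.43 (± 0.18) with it, in 6 of 6 experiments each, with an interaction of 1.54 ± 0.38 (adjusted p = 8.07e-07). It was higher with doxycycline alone (0.65 ± 0.23, adjusted p = 0.000602) and lower with doxycycline in butyrate (-0.90 ± 0.25, adjusted p = 3.6e-06). SERPINB8, a serine protease inhibitor, gave 1.69 ± 0.45 (adjusted p = 2.12e-05). That value was 0.06 with normexp (adjusted p = 0.93) and 1.21 with quantile normalization (adjusted p = 0.211), and 4 of 6 DoxyNaB arrays were well above background. Over all called probes, 21 rose without doxycycline and fell with it in all 6 experiments, and 2 did the reverse.

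LONRF2, ZNF280A and CCN2, a matricellular growth regulator, gave 1.43 ± 0.63 (adjusted p = 0.00625), 1.43 ± 0.63 (adjusted p = 0.00123) and 1.40 ± 0.47 (adjusted p = 0.00576). The call was lost in 5 of the 6 fits that left out 1 experiment for LONRF2 (experiments 1, 3, 4, 5 and 6, adjusted p up to 0.0543) and CCN2 (experiments 1 to 5, adjusted p up to 0.0543), and in 3 for ZNF280A (experiments 3, 5 and 6, adjusted p up to 0.0167). CCN2 had the largest butyrate response of the named genes, 6.69 ± 0.63 without doxycycline and 5.29 ± 0.40 with it.

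UCA1, a long non-coding RNA first described in urothelial cancer, was the gene butyrate lowered most unequally in the negative set. Its level was 1.85, 2.12 and 2.31 in Ctl, -0.50, -0.45 and -0.28 in NaB, 1.67, 1.92 and 2.21 in Doxy, and 1.21, 1.44 and 1.85 in DoxyNaB. The NaB arrays lay below all others, and DoxyNaB overlapped Doxy. UCA1 fell by 2.50 (± 0.20) without doxycycline and by 0.47 (± 0.19) with it, giving an interaction of -2.03 ± 0.32 (adjusted p = 2.41e-08) that was called with each scaling run. CDC25B, the phosphatase that activates cyclin-dependent kinases at entry to mitosis, had a level of 1.46, 1.64 and 2.32 in Ctl, 0.61, 0.90 and 1.44 in NaB, 1.35, 1.66 and 2.20 in Doxy, and 2.21, 2.66 and 3.40 in DoxyNaB. NaB was lowest and DoxyNaB highest in every experiment. It fell by 0.80 (± 0.11) without doxycycline and rose by 1.07 ± 0.34 with it, an interaction of -1.87 ± 0.32 (adjusted p = 8.26e-08), also called with each scaling.

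TM4SF19, a tetraspanin-like membrane protein, was at -4.61, -3.50 and -2.74 in NaB and at -2.05, -1.34 and -1.16 in DoxyNaB. It rose with butyrate by 2.57 ± 0.43 in doxycycline and gave 0.19 ± 0.65 without it (-0.95 with quantile normalization), with an interaction of -2.38 ± 0.99 (adjusted p = 5.89e-05), not called with normexp (-1.61, adjusted p = 0.0329). Of the NaB arrays, 5 of 6 showed TM4SF19 well above background. RNASE1, the pancreatic-type ribonuclease, was at 0.10, 0.18 and 0.30 in NaB and at 1.07, 1.41 and 1.61 in DoxyNaB, with an interaction of -1.42 ± 0.17 (adjusted p = 1.78e-06). CYSRT1, which encodes a cysteine-rich protein of the skin barrier, was at 2.15, 2.27 and 2.86 in NaB and at 3.51, 3.82 and 4.52 in DoxyNaB, with an interaction of -1.42 ± 0.28 (adjusted p = 5.47e-05) and -1.46 at a second probe. For all of these the butyrate rise was the larger one with doxycycline, and the NaB and DoxyNaB arrays did not overlap.

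AADACP1 (-1.06 ± 0.35, adjusted p = 8.64e-05) and ARID3B, an AT-rich DNA binding factor (-0.98 ± 0.29, adjusted p = 0.000206), as well as LHB and ELF3, kept their calls in all fits that left out 1 experiment. None of these genes was called with normexp (adjusted p from 0.0337 to 0.273) or median scaling (adjusted p from 0.299 to 0.949). AADACP1 was not called with quantile normalization either (adjusted p = 0.26). The hormone subunits LHB (-1.15 ± 0.40, adjusted p = 0.000701) and CGB3 (-0.96 ± 0.34, adjusted p = 0.004) belong to a family of nearly identical genes, so that their probes may measure the same transcripts. SBSN, suprabasin of the epidermis (-1.40 ± 0.46, adjusted p = 0.0019), lost its call without experiments 1, 3 or 4, IL11, a cytokine of the interleukin-6 family (-1.33 ± 0.52, adjusted p = 0.00458), without 1, 2, 4 or 5, and ARC (-0.81 ± 0.32, adjusted p = 0.00346) without 1, 4 or 6, with adjusted p up to 0.0169, 0.042 and 0.0408. The crystallin gene CRYBA2 (-1.75 ± 1.04, adjusted p = 0.00801), LRG1 (-1.01 ± 0.39, adjusted p = 0.00346) and CGB3 lost theirs in 5 of 6 such fits each, CRYBA2 in all but that without experiment 3, LRG1 in all but that without 6 and CGB3 in all but that without 3, with adjusted p up to 0.0886, 0.0275 and 0.0545. ELF3, an epithelial Ets factor listed as a colon marker, gave -0.72 ± 0.21 (adjusted p = 0.000192), with medians of 2.15 in NaB and 2.70 in DoxyNaB.

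The 7 called ATF4 genes had their larger doxycycline difference in the cells without butyrate. CHAC1, which degrades glutathione, had a level of 0.71, 0.82 and 1.35 in Ctl, 0.99, 1.12 and 1.47 in NaB, 1.29, 2.50 and 2.96 in Doxy, and 1.18, 1.46 and 1.76 in DoxyNaB. Doxy was the highest group in median, and 1 Doxy array, that of experiment 4, lay within the range of Ctl. CHAC1 rose with doxycycline by 1.49 ± 0.49 (adjusted p = 5.53e-05), while the difference in butyrate was 0.29 ± 0.15 (adjusted p = 0.434). Its interaction was 1.20 ± 0.48 (adjusted p = 0.00607), a call lost in 5 of the 6 fits without 1 experiment, all but that without experiment 4 (adjusted p up to 0.0526), and a second probe gave 1.57 (adjusted p = 8.26e-08).

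PCK2, the mitochondrial phosphoenolpyruvate carboxykinase, was at -0.93, -0.55 and -0.18 in Ctl, -0.97, -0.46 and -0.18 in NaB, 0.10, 0.80 and 1.00 in Doxy, and -0.66, -0.32 and 0.01 in DoxyNaB. Doxy alone stood above the other 3 groups, which overlapped. PCK2 rose with doxycycline by 1.25 ± 0.13 (adjusted p = 9.9e-07), the difference in butyrate was 0.15 ± 0.32 (adjusted p = 0.541), and the interaction was 1.10 ± 0.38 (adjusted p = 0.000187). TRIB3, a pseudokinase that feeds back on ATF4, was at 2.42, 2.49 and 2.62 in Ctl and at 3.31, 3.39 and 3.71 in Doxy, without overlap, and at 0.79, 0.91 and 1.17 in NaB and 0.79, 1.00 and 1.09 in DoxyNaB, with nearly the same range. The TRIB3 interaction was 0.88 ± 0.19 (adjusted p = 5.89e-05). ASNS, asparagine synthetase, rose with doxycycline by 1.09 ± 0.06 without butyrate (adjusted p = 2.1e-07) and by 0.37 ± 0.20 with it (adjusted p = 0.00607), and its interaction was 0.72 ± 0.21 (adjusted p = 0.000664).

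SLC7A11, the cystine transporter, gave 1.89 ± 0.66 (adjusted p = 0.00305), SESN2, a stress sensor upstream of mTOR, 0.67 ± 0.17 (adjusted p = 0.00458) and PHGDH, the entry enzyme of serine synthesis, 0.56 ± 0.17 (adjusted p = 0.00153). These calls too depended on single experiments. SLC7A11 and SESN2 lost theirs without any of experiments 2 to 6 (adjusted p up to 0.0229 and 0.0469), and PHGDH without experiment 4 or 5 (adjusted p up to 0.0174). The direction of a few butyrate responses in this list turned with median scaling, where PCK2 gave -0.70, PHGDH -0.65 and ASNS -0.041 without doxycycline.

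Of the 28 ATF4 genes tested, these 7 were called, all positive, against 1.14% of all genes called positive. The list was chosen with earlier results of these data known, so that these shares only describe it. The list median was 0.39, against 0.04 over all genes. With doxycycline alone 12 of the 28 were higher and 0 lower, against 0.443% of all genes higher, and the median difference was 0.47 against 0.02 over all genes. In the presence of butyrate 4 were higher and 0 lower (0.709% of all genes were higher), with a median of 0.02. The 12 genes became 9 to 12 when 1 experiment was left out, 14 without the 2 arrays of high negative controls and 1 with median scaling. DDIT3, the stress factor CHOP, rose with doxycycline without butyrate (1.17, adjusted p = 6.75e-05) and with it (1.58, adjusted p = 4.13e-07), and its interaction of -0.41 was not called (adjusted p = 0.377). GDF15, a secreted stress cytokine, likewise rose in both settings, by 0.53 (adjusted p = 0.00279) and 0.75 (adjusted p = 1.84e-05). DDIT4, an inhibitor of mTOR, rose by 1.32 (adjusted p = 1.16e-07) and 0.74 (adjusted p = 1.78e-05). The transcript of ATF4 itself rose by 0.45 with doxycycline (adjusted p = 0.000602), and its interaction of 0.40 did not pass the test (adjusted p = 0.0199). HSPD1, LONP1 and CLPP, which handle misfolded protein in mitochondria, had doxycycline differences between -0.09 and 0.08, none called.

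**Figure D4:**
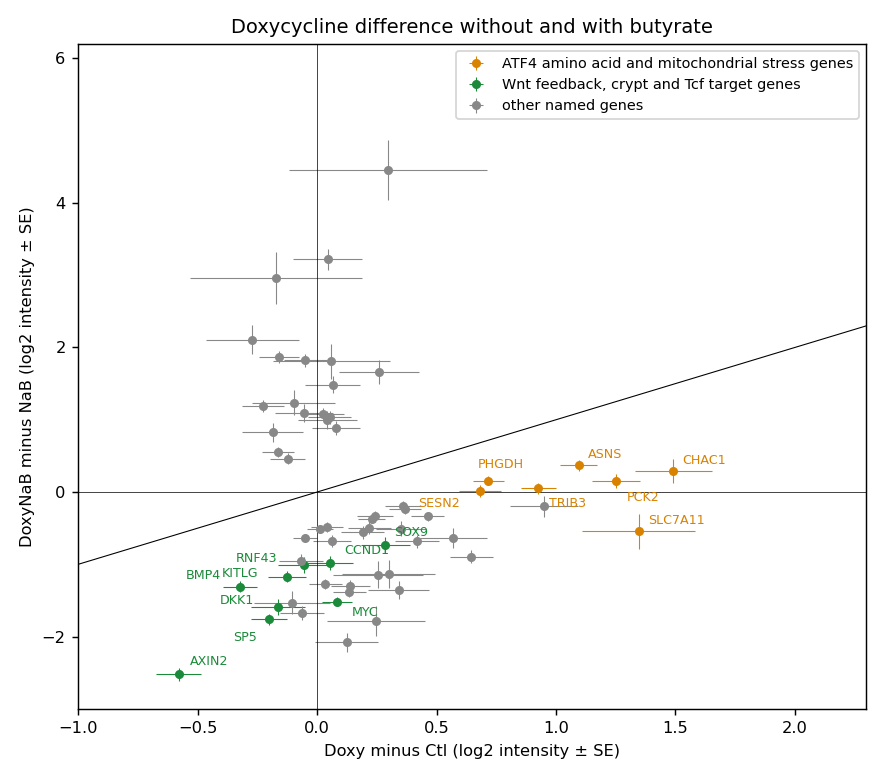
Doxycycline difference in the presence of butyrate (y axis, DoxyNaB minus NaB, log2 intensity) against that in its absence (x axis, Doxy minus Ctl, log2 intensity), with standard errors, for the called probes of named genes except KRT37; equal differences lie on the line. The ATF4 genes spread to the right, with x values from 0.68 to 1.49, while the Wnt feedback, crypt and Tcf target genes lie low, with y values from -2.53 to -0.73.

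BMP pathway genes were called in both directions. Of 22 tested, 4 were positive (MSX1, HEY1, BMP4 and DLX2), against 1.14% of all genes, and ID3 was negative, against 0.245%. The median interaction was 0.28, against 0.04 over all genes. DLX2, a homeobox factor, was at 0.39, 0.56 and 0.77 in NaB and at -0.27, -0.06 and 0.16 in DoxyNaB, with an interaction of 0.59 ± 0.12 (adjusted p = 9.36e-05). HEY1, a basic helix-loop-helix repressor downstream of Notch and BMP, rose with doxycycline alone by 0.95 ± 0.43 (adjusted p = 0.00124), and its interaction of 1.15 ± 0.36 (adjusted p = 0.00275) was not called without experiment 2, 4 or 5 (adjusted p up to 0.0293). ID3, an inhibitor of basic helix-loop-helix factors, gave -0.58 ± 0.24 (adjusted p = 0.00346), a call lost without any of experiments 1, 3, 4, 5 and 6 (adjusted p up to 0.0396). BMPR1A, BMPR2 and ACVR1, the receptors in the list, were not called.

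Secreted growth factors and ERK feedback genes had a few members each. Of 24 growth factors tested 4 were called, all positive (1.14% of all genes were), KITLG and FGF19, a bile acid-induced hormone (1.10 ± 0.14, adjusted p = 6.98e-05), AREG, a ligand of the EGF receptor (0.75 ± 0.32, adjusted p = 0.00218, with a second probe at 0.72 that was not called, adjusted p = 0.474), and TGFB1 (0.74 ± 0.21, adjusted p = 0.000911). AREG was called in 1 of the fits that left out an experiment, that without experiment 3 (adjusted p up to 0.0258 in the others), and TGFB1 was not called without experiment 4 (adjusted p = 0.0148). Of 19 ERK feedback genes, CCND1 and the phosphatases DUSP4 (0.60 ± 0.17, adjusted p = 0.00025) and DUSP6 (0.60 ± 0.24, adjusted p = 0.00103) were positive and IL11 negative (1.38% of all genes were called in either direction), and DUSP6 was not called without experiment 5 or 6 (adjusted p up to 0.0177).

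Among 37 apoptosis regulators, PMAIP1 and BIK, which encode BH3-only proteins, BIRC3 and HRK were called, all positive (1.14% of all genes were), and the list median was 0.06. BIK was at 2.23, 2.47 and 2.86 in NaB and at 1.13, 1.63 and 1.82 in DoxyNaB, with an interaction of 0.88 ± 0.31 (adjusted p = 0.000647). PMAIP1 gave 1.20 ± 0.21 (adjusted p = 0.00168), BIRC3 0.86 ± 0.44 (adjusted p = 0.0022) and HRK 0.55 ± 0.10 (adjusted p = 0.00653). The calls of PMAIP1, BIRC3 and HRK were lost in 4, 4 and 5 of the 6 fits without 1 experiment (PMAIP1 kept it without 1 or 3, BIRC3 without 2 or 4, HRK without 1), with adjusted p up to 0.0177, 0.0173 and 0.0559. NF-kB targets had 2 called of 12, both positive, BIRC3 and NFKBIA (0.52 ± 0.24, adjusted p = 0.00378, lost in all such fits but that without experiment 3, adjusted p up to 0.0369). BIRC3, HRK and NFKBIA were not called with normexp (0.0087, 0.26 and 0.32, adjusted p = 0.987, 0.617 and 0.609). Nor were they with quantile normalization (adjusted p = 0.473, 0.47 and 0.428). PMAIP1 was not called with normexp (adjusted p = 0.0479), and with median scaling none of these genes was called.

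KLF4, a factor of the differentiated colonocyte, was the only called gene of 8 tested on the differentiation list. The counts of this and the next lists stand beside 1.38% of all genes called, and single calls in lists of this size give no result about the list. Its level was -1.46, -1.32 and -1.31 in Ctl, -0.95, -0.86 and -0.68 in NaB, -1.07, -0.88 and -0.77 in Doxy, and -1.33, -1.15 and -1.04 in DoxyNaB. Either agent alone gave a higher level than none, without overlap, and the combination lay between. Its interaction was 0.80 ± 0.13 (adjusted p = 8.64e-05), and was not called with normexp (0.41, adjusted p = 0.565) or quantile normalization (0.89, adjusted p = 0.21). Of 23 AP-1 and immediate early genes IER3 alone was called (0.71 ± 0.30, adjusted p = 0.00272, lost in all fits without 1 experiment but that without 3, adjusted p up to 0.029), of 20 G1 cyclins, kinases and inhibitors CCND1 alone, and of 6 SOX factors SOX9 alone. Of 19 CCN and YAP target genes CCN2 and AMOTL2 were called, and of 22 interferon-stimulated genes 0 in limma, with a median interaction of -0.01.

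**Figure D5:**
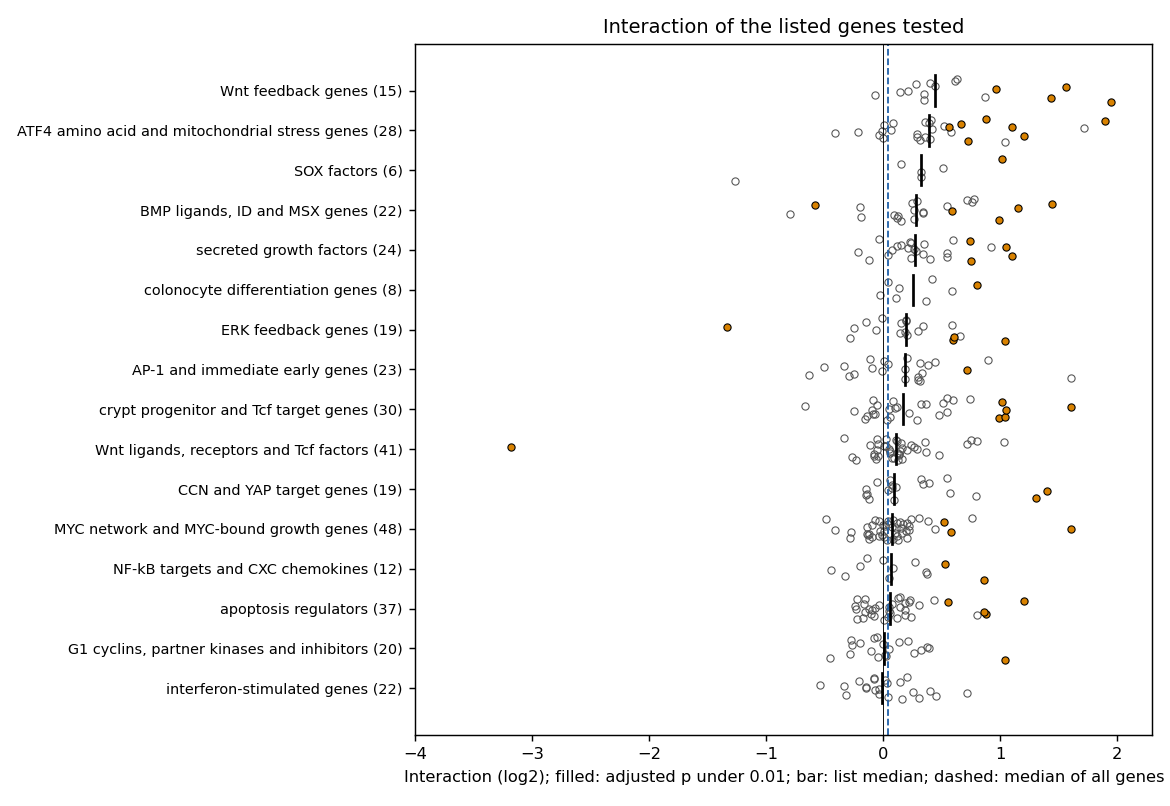
Interaction (x axis, log2) of every tested gene of 16 lists (rows, with the number tested), with called genes filled, list medians as bars and the median of all genes dashed. The Wnt feedback and ATF4 lists have the highest medians, 0.44 and 0.39, and the interferon list the lowest, -0.01.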

How the data were processed

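Total RNA of 24 cell cultures was labelled with 1 dye and hybridized to Agilent whole human genome arrays, whose coordinates are on NCBI36. The deposited files hold the scanner output of each array from Agilent Feature Extraction 9.5.3.1 (submitters' processing notes), as processed intensity after background subtraction by the authors, and nothing normalized between arrays. The authors' later steps in GeneSpring and their paired T-test were not used as input here.

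Only non-control spots without an outlier flag were kept, no floor was set, and each array was scaled by its own 75th percentile over the remaining spots. Spots of a probe were then averaged, so that the deposited intensities became log2 levels of 34127 probes. The 18984 probes that all arrays of any 1 group showed well above background (arrays with a flagged spot ignored) were fitted with limma 3.58.1 in R 4.3.3 on all 24 arrays with the experiment number as a block, and p-values were adjusted by Benjamini-Hochberg over all probes tested, with calls at an adjusted p below 0.01. A probe was named through RefSeq accessions and symbols, and 491 probes tested had no name. A gene listed with several probes is represented by the probe of highest mean level. The number of arrays limits the precision.

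The experiment numbers of the labels pair the samples, as in the paired test of the study: deviations from the group means correlated within an experiment at 0.218 to 0.851, except for NaB and DoxyNaB of experiment 3 (-0.217). Each of experiments 2 to 6 shared 1 slide. In experiment 1, Ctl and Doxy were on 1 slide and scan and NaB and DoxyNaB on another. Experiments 2 to 4 formed 1 scan set and experiments 5 and 6 another, so that slide and scan were balanced over the groups except in experiment 1. Nothing in the labels says more of how the experiments were separated. The limma p-values rest on the spread left after groups and experiments were fitted, taken as 1 estimate over all 4 groups. The ± values are SDs over the 6 experiments, so that a small SD need not go with a small p-value.

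Named genes were the 15 most positive and the 15 most negative called interactions with the same sign in 6 of 6 experiments, 1 probe per gene, among genes matched to RefSeq (14 such symbols found only in the files, FLJ25694 and AF143325 among them, were left out), called genes of the lists, TCF7L2 and a fixed set of Tcf targets (64 genes, 67 probes). Members and lists were chosen with earlier results of these data known. On simulated data of 18331 probes the fit was tested, and 9, 38, 37 and 42 of 50 interactions of 0.5, 1.0, 1.5 and 2.0 were called with the right sign, with 1 unchanged probe called. A total of 25 alternatives was run, and the 75th percentile over probe averages was added after seeing the data. Promoters and symbols are from RefSeq tables on GRCh38.p14.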

Additional observations from a re-analysis of the deposited data

Results flagged for a closer look

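The interaction itself is the difference between groups that was tested: 236 probes were called. In 7 of the named genes every experiment moved one way without doxycycline and the other way with it, as did 21 called probes in all in the order up and down and 2 in the reverse. They were AXIN2 (interaction 1.95, with responses of 1.19 and -0.76), SERPINB8 (1.69, with 0.98 and -0.71), IFRD1 (1.54, with 1.11 and -0.43), SOX9 (1.01, with 0.29 and -0.73), KLF4 (0.80, with 0.53 and -0.28), AREG (0.75, with 0.47 and -0.28) and, down and up, CDC25B (-1.87, with -0.80 and 1.07). With median scaling the response without doxycycline of KLF4 and AREG was below 0, with normexp the response with doxycycline of SERPINB8 was above 0, and with quantile normalization its response without doxycycline was below 0.

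Single values stood apart from the other 5 of their group in a few places among the 79 groups of 6 examined, of which chance sets about 1 in 20 apart. The interaction of AXIN2 was 2.75 in 1 experiment against 1.53 to 1.96 in the others. That of ZNF280A was 0.18 against 1.46 to 1.92, that of LHB -1.92 against -1.19 to -0.90, and that of ASNS 1.14 against 0.55 to 0.70. The negative control signal of the DoxyNaB array of experiment 2 was 248.9 against 51.2 to 110.9 on the other DoxyNaB arrays. Without this array and the NaB array of experiment 3, 269 probes were called for the interaction.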

How the results depend on the processing

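The count of interaction calls, 236 in the main fit, was 43 with normexp, 9 with median scaling, 144 with no filter, 843 by the methods' t-test before adjustment (p below 0.01) and 0 after Benjamini-Hochberg adjustment of it, 421 at an adjusted p below 0.05, 75 over 2-fold, 5 in experiments 2 to 4 alone and 0 in experiments 5 and 6 alone, where fewer arrays were fitted. At an unadjusted p below 0.05 limma gave 2286 probes. Leaving out experiments 1 to 6 in turn gave 154, 196, 148, 129, 118 and 132 calls, and scaling to the 75th percentile over probe averages, chosen after seeing the data, gave 185 calls, 181 of them shared with the main fit. Without the experiment number as a block, that is without the pairing, 85 interactions were called, 1 ATF4 gene, 36 probes for doxycycline alone and 178 for doxycycline in butyrate. The Wnt feedback count of 4 was 2 with normexp, 0 with median scaling, 0 with the adjusted t-test, 1 in experiments 2 to 4 and 0 in experiments 5 and 6, and 3 to 4 without 1 experiment. The crypt and Tcf target count of 5 was 0 with median scaling, 10 and 0 with the t-test before and after adjustment, 9 at an adjusted p below 0.05, and 1 and 0 in experiments 2 to 4 and 5 and 6, and 5 to 6 without 1 experiment. The ATF4 count of 7 was 4 with normexp, 0 with median scaling, 11 with the 75th percentile over detected probes, 4 with no filter, 11 and 0 with the t-test, 11 at an adjusted p below 0.05, 3 over 2-fold, 0 in either scan set alone and 3 to 6 without 1 experiment. Butyrate responses without doxycycline numbered 12952, and 8301 with normexp. Doxycycline differences without butyrate numbered 95, and 21 with normexp, 5 with median scaling, 144 with the 75th percentile over detected probes, 55 with no filter, 222 at an adjusted p below 0.05, 145 without the 2 arrays of high negative controls, 3 and 0 in the scan sets and 36 to 81 without 1 experiment. Those with butyrate numbered 472, and 109, 46 and 286 with normexp, median scaling and no filter, 883 at an adjusted p below 0.05, 39 and 3 in the scan sets and 257 to 401 without 1 experiment.

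Some directions turned. With normexp they were SERPINB8 with doxycycline (0.17), the KRT37 interaction (-0.20) and its doxycycline difference in butyrate (0.054), and that difference of BIRC3 (0.00085). With quantile normalization, ZNF503-AS2 (-0.079), SP5 (-0.044) and BIRC3 (-0.14) turned with doxycycline, and SERPINB8 (-0.25) and TM4SF19 (-0.95) without it. With median scaling, MSX1 (-0.11), ID3 (-0.28), DLX2 (-0.060) and TGFB1 (-0.11) turned with doxycycline, and MNT (-0.73), KLF4 (-0.22), IER3 (-0.015), AREG (-0.28), ASNS (-0.041), PHGDH (-0.65), PCK2 (-0.70), BIK (-0.16) and ELF3 (-0.54) without it. The cause was not tested. Signal over background limits the dim probes: 207 of the 236 called were well above background on all 24 arrays.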

Other observations

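Probes placed on the mitochondrial chromosome, examined after the values were seen, differed among themselves. The probe at positions 3369 to 3428 had an interaction of -1.31 (limma adjusted p = 0.00551) and was lower with doxycycline by -2.58 without butyrate (adjusted p = 1.85e-07) and by -1.27 with it (adjusted p = 0.000144). The probe at 13887 to 13946 was lower with doxycycline alone by -1.14 (adjusted p = 0.000199), and its interaction of -0.75 was not called (adjusted p = 0.0609). The probe at 14449 to 14508 had a doxycycline difference of 1.15 (adjusted p = 0.0682). The probes with starts at 4914 and 15588 had doxycycline differences of -0.17 (adjusted p = 0.503) and -0.23 (adjusted p = 0.233).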
